A study of Mus musculus with 6 samples.

Results

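The 10 genes Gpd1, Pck1, Gpam, Agpat2, Agpat3, Lpin1, Dgat1, Dgat2, Mogat1 and Pnpla3 encode enzymes that supply glycerol-3-phosphate and build triglyceride from it, together with a lipid-droplet acylhydrolase. They were chosen by gene symbol from a deposited count table of 55011 symbols. All 10 matched a symbol, and all 10 were among the 13859 genes with enough counts to be tested. Fat cells store energy by joining 3 fatty acyl chains to a glycerol backbone on the endoplasmic reticulum. The backbone enters as glycerol-3-phosphate, which adipocytes make from glucose or, in glyceroneogenesis, from pyruvate and related precursors through phosphoenolpyruvate carboxykinase. Acyltransferases then add the first acyl chains, lipins remove the phosphate, and diacylglycerol acyltransferases add the last chain.

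Whole visceral adipose tissue of 30-week-old male C57BL/6 mice gave the RNA, which was sequenced as 3 libraries labelled Bmal1KO and 3 labelled Bmal1WT. Both groups carried Foxp3.Cre-YFP, a Cre recombinase with a fluorescent tag that is driven by Foxp3, the defining transcription factor of regulatory T cells. The Bmal1KO mice lacked the clock transcription factor BMAL1 (gene Arntl) where that Cre acts, and the Bmal1WT mice kept it, so the Cre was aimed at regulatory T cells while all cells of the tissue were measured. Feeding was the same in both groups, with low-fat feed during 14 weeks before 16 weeks of high-fat feed, and collection was at ZT0, the onset of light. The labels number the libraries but do not say that each is a separate animal, so every p-value here measures the spread between these libraries.

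In Bmal1KO fat, 10 of the 10 genes had a log2 fold change below 0, although Agpat3 and Lpin1 lay above 0 with libraries scaled by total counts alone and 6 of the 10 did with libraries scaled by adipocyte markers. After adjustment, 0 of 10 passed edgeR's quasi-likelihood test over all genes (Benjamini-Hochberg adjusted p under 0.05), as did 0% of all genes tested. The largest differences were in Mogat1, Pnpla3 and Dgat2, at log2 fold changes of -0.99, -0.74 and -0.66, followed by Gpam, Agpat2 and Gpd1. Pck1, Agpat3, Lpin1 and Dgat1 differed by less than their standard errors. The median over the 10 genes was -0.45, beside 0.02 over all genes tested.

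The libraries held 6514620 to 8678772 counts in Bmal1KO and 8779413 to 9529198 in Bmal1WT. Bmal1KO replicate 1 stood apart: it was the shallowest library and yet had counts on 30019 genes, against 19009 to 20145 in the other 5. Bmal1WT replicate 1 carried epididymis and testis markers at 308 CPM in sum, against 0.453 to 3.60 CPM in the other 5 (CPM being counts scaled to a common library total with TMM factors). Arntl, which checks the labels only weakly in whole tissue, had 324, 289 and 314 counts in Bmal1KO replicates 1 to 3 and 273, 242 and 373 counts in Bmal1WT replicates 1 to 3 (log2 fold change 0.27, SE 0.22, adjusted p = 0.719). Foxp3 had 3, 0 and 2 counts in Bmal1KO and 0 in every Bmal1WT library, which does not exceed the 3 counts taken as the limit of detection in a library. The defining genes of fat cells were abundant in all 6 libraries, 13 adipocyte markers summing to 14630.0 to 32664 CPM in Bmal1KO and 25583 to 30475 CPM in Bmal1WT.

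Levels of different genes were compared per kilobase of exon, as the median over the 6 libraries. The length joins all annotated exons of a gene and can exceed that of the transcript expressed, so the order between genes is approximate. Dgat2, the acyltransferase that adds the last chain and belongs to a family shared with the monoacylglycerol acyltransferases, led at 1413 CPM per kb. Agpat2 followed at 635 CPM per kb and Gpd1 at 402 CPM per kb. Each of these 3 lay above the next gene in 6 of 6 libraries. Pnpla3 at 143 CPM per kb and Pck1 at 94.9 CPM per kb did not separate, since Pnpla3 was the higher in 4 of 6 libraries. Dgat1, an acyltransferase with the same final reaction as Dgat2 but from an unrelated protein family, stood at 47.7 CPM per kb. Lpin1, Agpat3 and Gpam followed at 15.8, 12.2 and 10.1 CPM per kb, and their ranges overlapped. Mogat1 was the lowest in 6 of 6 libraries, at 4.40 CPM per kb.

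**Figure D1:**
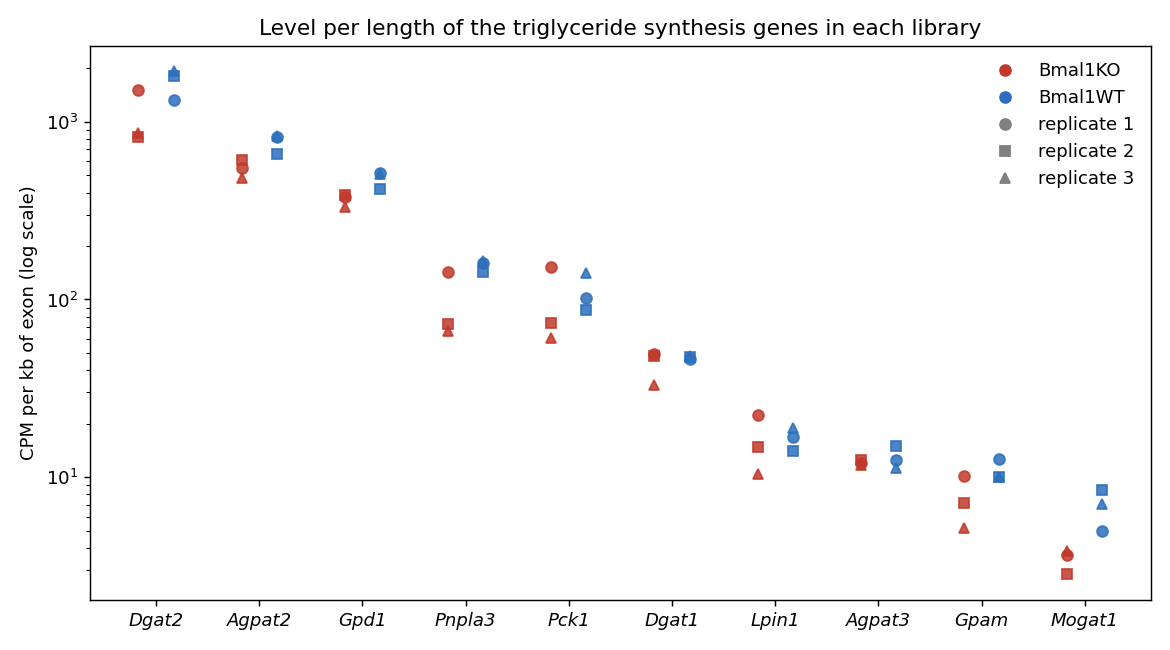
Level of each gene in CPM per kb of exon (log axis) in the 6 libraries, with Bmal1KO points left of Bmal1WT points and the marker shape giving the replicate. Dgat2 is highest and Mogat1 lowest in every library, and the Bmal1KO points of Pnpla3 split into 1 high and 2 low libraries.

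Promoter sequences, taken from RefSeq on GRCm38.p6 as 250 bases before to 50 after the start of transcription, were found for 7 of the 10 genes (8 promoters, Gpam having 2). Those of Pnpla3 and Pck1 are shown because each carries a cyclic AMP response element or its core, and that of Mogat1 because it carries neither. Each is written 5′ to 3′ on the gene's strand, with capitals marking every TGACG core or its complement CGTCA. The Pnpla3 promoter lies at chr15:84167566-84167865 on the plus strand, that of Pck1 at chr2:173152823-173153122 on the plus strand, and that of Mogat1 at chr1:78510810-78511109 on the plus strand.
Pnpla3 promoter: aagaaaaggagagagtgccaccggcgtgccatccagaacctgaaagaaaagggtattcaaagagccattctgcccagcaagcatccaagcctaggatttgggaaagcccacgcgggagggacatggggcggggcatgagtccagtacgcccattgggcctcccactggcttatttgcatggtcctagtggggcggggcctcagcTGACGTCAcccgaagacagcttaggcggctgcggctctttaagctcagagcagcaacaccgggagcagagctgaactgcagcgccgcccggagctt
Pck1 promoter: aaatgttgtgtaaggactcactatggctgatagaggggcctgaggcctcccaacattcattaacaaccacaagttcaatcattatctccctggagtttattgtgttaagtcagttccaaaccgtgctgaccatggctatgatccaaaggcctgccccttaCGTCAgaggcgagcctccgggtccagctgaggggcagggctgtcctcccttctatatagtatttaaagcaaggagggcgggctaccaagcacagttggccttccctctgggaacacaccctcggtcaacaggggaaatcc
Mogat1 promoter: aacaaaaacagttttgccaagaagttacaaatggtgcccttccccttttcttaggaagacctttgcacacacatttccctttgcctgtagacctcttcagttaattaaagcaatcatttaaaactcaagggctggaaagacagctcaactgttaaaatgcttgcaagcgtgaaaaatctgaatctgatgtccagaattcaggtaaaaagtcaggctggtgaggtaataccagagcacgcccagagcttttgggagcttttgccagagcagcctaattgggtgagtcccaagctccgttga
On both strands, the full element TGACGTCA stood in Pnpla3 at -46 to -39 from the start site, where the core TGACG overlaps it on each strand, and in 1.79% of 32851 promoters of the same length. The core TGACG stood in Pck1 at -90 to -86; the rat gene is known to respond to cyclic AMP through such an element close to its start. It also stood in the promoter of Gpam at its inner start, and in 20.8% of all promoters. The E-box CACGTG, the site of BMAL1 with CLOCK, stood in 0 of the 8 promoters of these genes and in 7.15% of all promoters. The D-box TTATGTAA also stood in 0 of the 8 (0.938% of all). A match or its absence describes these letters in this window and nothing more.

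Glycerol-3-phosphate supply was represented by a dehydrogenase that makes it from dihydroxyacetone phosphate and by the key enzyme of glyceroneogenesis. Gpd1, the cytosolic glycerol-3-phosphate dehydrogenase (ENSMUSG00000023019.12, mm10 chromosome 15, 99717515 to 99725005), had 1113, 1142 and 979.7 CPM in Bmal1KO replicates 1 to 3 and 1519, 1240.3 and 1501 CPM in Bmal1WT replicates 1 to 3. The groups did not overlap: every Bmal1KO library lay under every Bmal1WT library. The means were 1078 ± 86.4 CPM in Bmal1KO and 1420.1 ± 156 CPM in Bmal1WT (SD, n = 3 each), a log2 fold change of -0.40 (SE 0.17, adjusted p = 0.517). Its exons share 384 bases with Gm16537 on the other strand, which had 0 to 3 counts in Bmal1KO and 3 to 12 counts in Bmal1WT.

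Pck1, the cytosolic phosphoenolpyruvate carboxykinase (ENSMUSG00000027513.11, mm10 chromosome 2, 173153048 to 173159273), had 521, 252 and 209 CPM in Bmal1KO and 351, 299 and 482 CPM in Bmal1WT. Bmal1KO replicate 1 was the highest of the 6 libraries and the other Bmal1KO libraries were the lowest. The means were 327 ± 169 CPM in Bmal1KO and 377 ± 94.0 CPM in Bmal1WT (SD, n = 3 each), and the log2 fold change was -0.21 (SE 0.32, adjusted p = 0.860). It was -0.71 without Bmal1KO replicate 1 (adjusted p = 0.109), 0.026 without Bmal1KO replicate 3 and 0.0072 without Bmal1WT replicate 3. The ratio of Gpd1 to Pck1 per length, which does not depend on scaling, averaged 4.39 ± 1.66 in Bmal1KO and 4.47 ± 0.754 in Bmal1WT (SD, n = 3 each; exact 2-sided permutation p = 1).

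**Figure D2:**
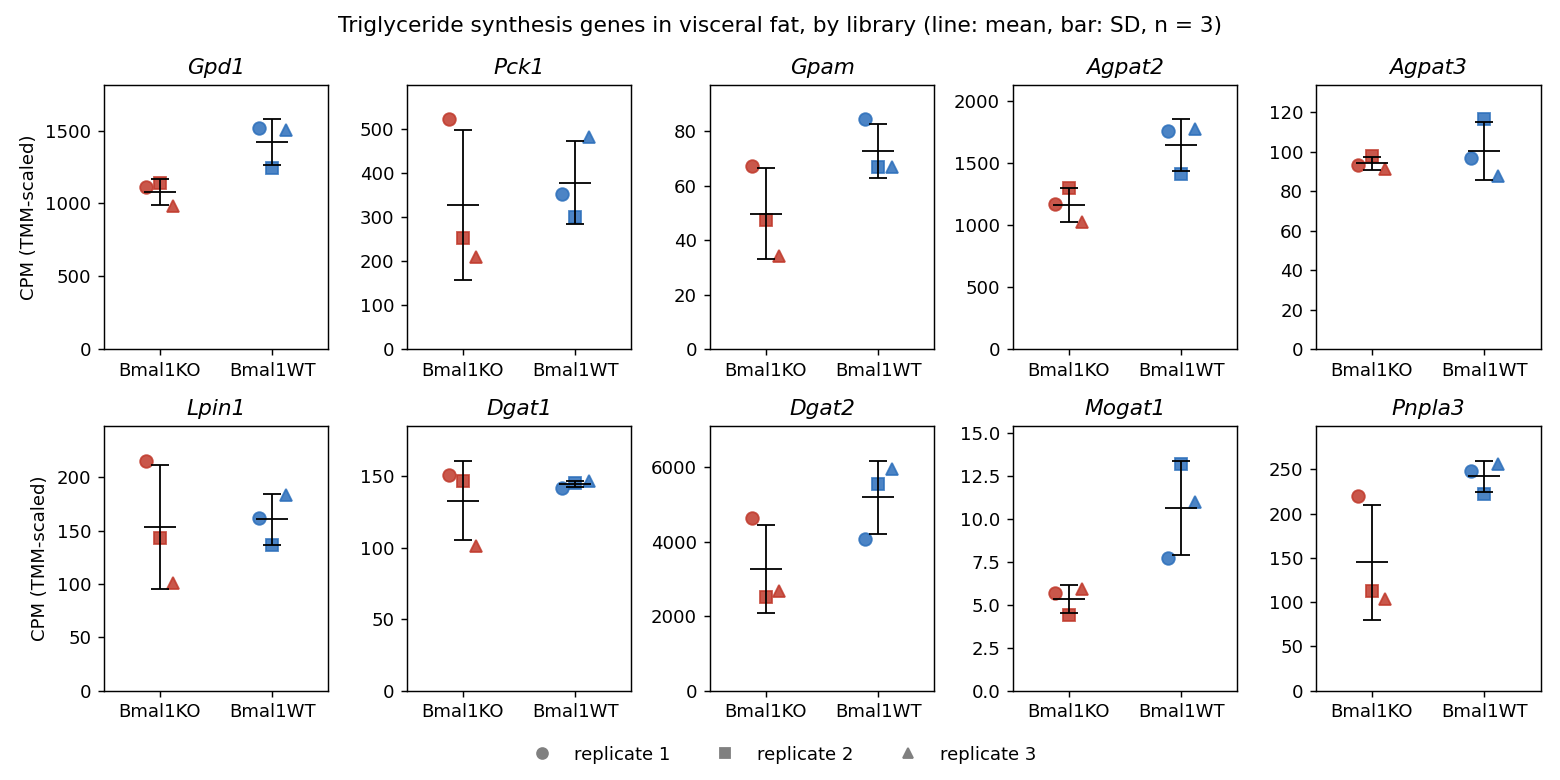
CPM of each gene in the 3 Bmal1KO libraries (left, red) and the 3 Bmal1WT libraries (right, blue), the marker shape giving the replicate and the bars the mean and SD. Gpd1, Agpat2, Mogat1 and Pnpla3 do not overlap between groups, and Bmal1KO replicate 1 lies above the other Bmal1KO libraries in Pck1, Gpam, Lpin1, Dgat1, Dgat2 and Pnpla3.

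The early acylations were represented by Gpam, Agpat2 and Agpat3. Gpam, the mitochondrial glycerol-3-phosphate acyltransferase (ENSMUSG00000024978.11, mm10 chromosome 19, 55067268 to 55127238), had 67.4, 47.6 and 34.4 CPM in Bmal1KO and 84.3, 67.02 and 66.9 CPM in Bmal1WT. Only Bmal1KO replicate 1 reached into the Bmal1WT range. The means of 49.8 ± 16.6 CPM in Bmal1KO and 72.8 ± 10.002 CPM in Bmal1WT (SD, n = 3 each) gave a log2 fold change of -0.55 (SE 0.24, adjusted p = 0.515). Without Bmal1KO replicate 1 it was -0.83 and still missed the threshold (adjusted p = 0.0785).

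Agpat2, the main adipocyte enzyme that acylates lysophosphatidate and whose loss causes generalised lipodystrophy in people and mice (ENSMUSG00000026922.13, mm10 chromosome 2, 26593057 to 26604417), had 1170.5, 1297 and 1025 CPM in Bmal1KO and 1756, 1409 and 1774 CPM in Bmal1WT. Every Bmal1KO library lay under every Bmal1WT library. The means were 1164 ± 136 CPM in Bmal1KO and 1646 ± 206 CPM in Bmal1WT (SD, n = 3 each), a log2 fold change of -0.50 (SE 0.18, adjusted p = 0.463). Its exons share 64 bases with Egfl7 on the other strand, an endothelial gene with 365 to 569 counts in Bmal1KO and 558 to 1352 counts in Bmal1WT, and the libraries do not mark strand. Agpat2 itself had 7784 to 11455 counts in Bmal1KO and 12024 to 16489 counts in Bmal1WT.

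Agpat3, a relative of Agpat2 that is expressed in many tissues (ENSMUSG00000001211.15, mm10 chromosome 10, 78269178 to 78352489), had 93.4, 97.8 and 91.3 CPM in Bmal1KO and 96.8, 116 and 87.7 CPM in Bmal1WT. All 3 Bmal1KO values lay inside the Bmal1WT range. The log2 fold change was -0.09 (SE 0.16, adjusted p = 0.881), and it was 0.031 without Bmal1WT replicate 2 and 0.0026 with total counts as the scale. The ratio of Agpat2 to Agpat3 per length was 45.8, 48.5 and 41.04 in Bmal1KO and 66.3, 44.2 and 74.0 in Bmal1WT. The groups overlapped through Bmal1WT replicate 2 (exact 2-sided permutation p = 0.3). With 3 libraries against 3 that test cannot go under 0.1, so it cannot decide whether the responses of these relatives differ.

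Lpin1, the phosphatidate phosphatase whose loss causes the fatty liver dystrophy phenotype of mice (ENSMUSG00000020593.15, mm10 chromosome 12, 16535669 to 16610966), had 216, 143 and 101 CPM in Bmal1KO and 162, 136 and 183 CPM in Bmal1WT. As in Pck1, Bmal1KO replicate 1 was the highest of all 6 libraries. The means were 153 ± 58.0 CPM in Bmal1KO and 161 ± 23.6 CPM in Bmal1WT (SD, n = 3 each), with a log2 fold change of -0.07 (SE 0.25, adjusted p = 0.949). The sign turned without Bmal1KO replicate 3 (0.15), without Bmal1WT replicate 3 (0.039) and with total counts as the scale (0.025), and without Bmal1KO replicate 1 the value was -0.40 (adjusted p = 0.348).

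For the final acylation, Dgat2 and Dgat1 catalyse the same reaction. Dgat2 (ENSMUSG00000030747.5, mm10 chromosome 7, 99153658 to 99182719) had 4638, 2517 and 2673 CPM in Bmal1KO and 4075, 5548 and 5946 CPM in Bmal1WT. Bmal1KO replicates 2 and 3 lay under all Bmal1WT libraries, and Bmal1KO replicate 1 lay above Bmal1WT replicate 1. The means were 3276 ± 1182 CPM in Bmal1KO and 5189.6 ± 986 CPM in Bmal1WT (SD, n = 3 each), a log2 fold change of -0.66 (SE 0.27, adjusted p = 0.485). Without Bmal1KO replicate 1 Dgat2 passed the test, at -1.002 (adjusted p = 0.0395, range over the 15 alternatives 0.0180 to 0.907).

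Dgat1 (ENSMUSG00000022555.12, mm10 chromosome 15, 76502015 to 76511953) had 151, 147 and 101 CPM in Bmal1KO and 142, 145 and 146 CPM in Bmal1WT. Bmal1KO replicates 1 and 2 lay above every Bmal1WT library and Bmal1KO replicate 3 under them all. The log2 fold change was -0.12 (SE 0.18, adjusted p = 0.856), and it was 0.039 without Bmal1KO replicate 3. The ratio of Dgat2 to Dgat1 per length was 30.4, 16.99 and 26.3 in Bmal1KO and 28.5, 37.9 and 40.3 in Bmal1WT. Only Bmal1KO replicate 1 was inside the Bmal1WT range, and the means of 24.6 ± 6.88 in Bmal1KO and 35.6 ± 6.26 in Bmal1WT (SD, n = 3 each) were not separated (exact 2-sided permutation p = 0.2, where 0.1 is the smallest that 3 libraries against 3 allow).

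Mogat1, which acylates monoacylglycerol (ENSMUSG00000012187.13, mm10 chromosome 1, 78510991 to 78538173), was scarce, with 38, 39 and 48 counts in Bmal1KO and 68, 113 and 102 counts in Bmal1WT. This was 5.71, 4.42 and 5.96 CPM in Bmal1KO and 7.76, 13.2 and 10.98 CPM in Bmal1WT, without overlap. The means of 5.36 ± 0.828 CPM in Bmal1KO and 10.7 ± 2.76 CPM in Bmal1WT (SD, n = 3 each) gave a log2 fold change of -0.99 (SE 0.35, adjusted p = 0.456). Its exons share 200 bases with BC035947 on the other strand, which had 16, 0 and 0 counts in Bmal1KO and 7, 0 and 11 counts in Bmal1WT. In contrast to Dgat2 and Pnpla3, Bmal1KO replicate 1 was here as low as the other Bmal1KO libraries.

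Pnpla3, a lipid-droplet protein of the patatin family with reported lipase and acyltransferase activities, whose RNA rises with feeding in mouse liver and fat (ENSMUSG00000041653.5, mm10 chromosome 15, 84167837 to 84187236), had 220.1, 112 and 103 CPM in Bmal1KO and 249, 222 and 256 CPM in Bmal1WT. No Bmal1KO library reached the lowest Bmal1WT library, but Bmal1KO replicate 1 missed it by little. The means were 145 ± 65.0 CPM in Bmal1KO and 242 ± 17.6 CPM in Bmal1WT (SD, n = 3 each), a log2 fold change of -0.74 (SE 0.26, adjusted p = 0.453). Without Bmal1KO replicate 1 Pnpla3 passed the test, at -1.17 (adjusted p = 0.0113, range over the 15 alternatives 0.0113 to 0.727). Gm49513, which shares 105 bases of exon with it on the same strand, had 0 to 2 counts in any library.

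Read against all genes, 6 of the 10 (Gpd1, Gpam, Agpat2, Dgat2, Mogat1 and Pnpla3) had an unadjusted p under 0.05 with a negative log2 fold change, where 4.26% of all genes tested did. Groups without overlap and with Bmal1KO lower were seen in 4 of the 10 and in 7.85% of all genes tested, and a log2 fold change below 0 in 48% of all genes tested. Groups without overlap and with Bmal1KO higher were seen in 0 of the 10 and in 7.83% of all genes tested. DESeq2, which called 0.167% of its genes lower, and limma voom each called 0 of the 10. Without Bmal1KO replicate 1, edgeR called 2 of the 10 lower, Dgat2 and Pnpla3, beside 0.772% of the genes then tested. The same 2 genes were called without the first replicate of both groups, at -1.14 and -1.14 (0.358% of the genes then tested), and with no filter on low counts, at -0.69 and -0.77 (0.226%).

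**Figure D3:**
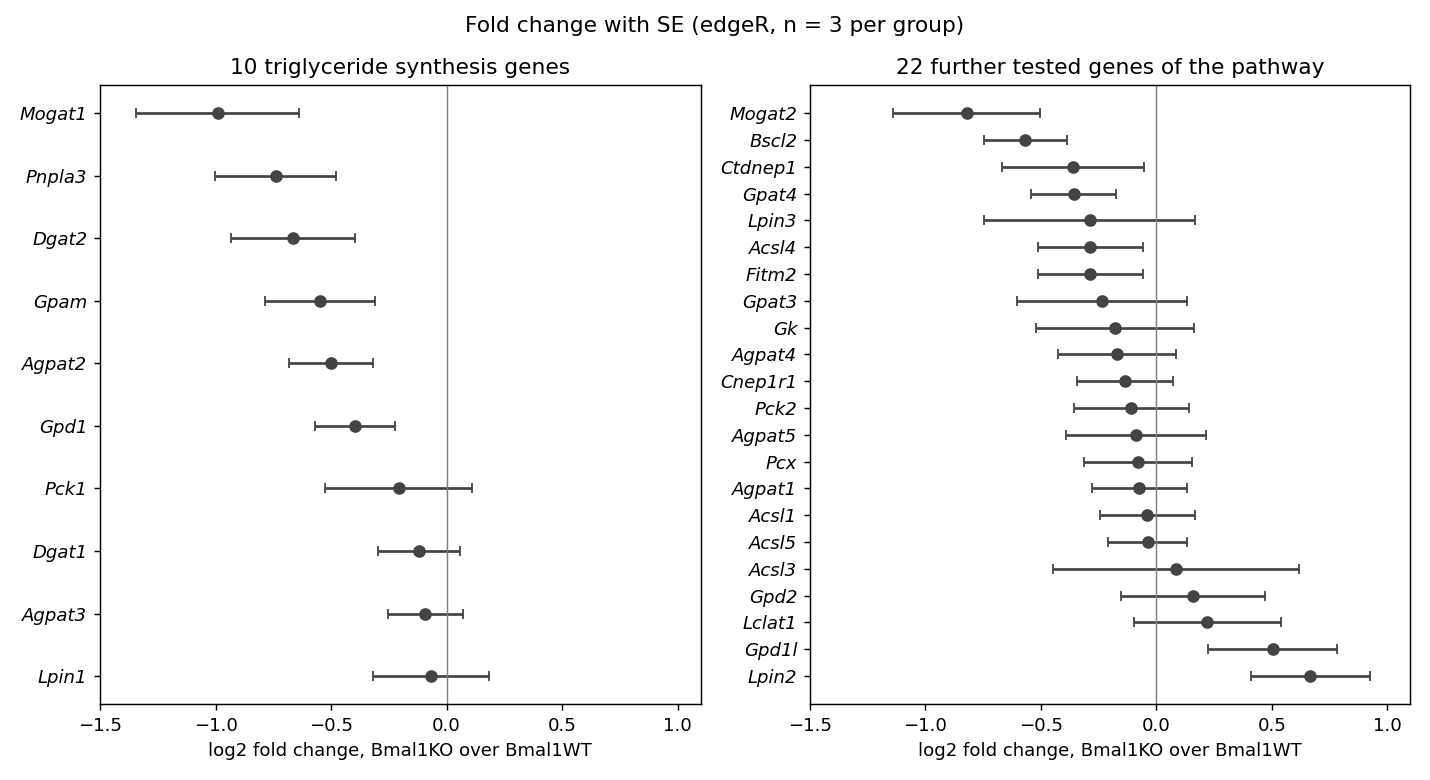
Log2 fold change of Bmal1KO over Bmal1WT with its SE (n = 3 per group) for the 10 triglyceride synthesis genes and for 22 further tested genes of the pathway. The 10 genes run from -0.99 in Mogat1 to -0.07 in Lpin1, and the further genes from -0.82 in Mogat2 to 0.67 in Lpin2.

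A list of 25 further genes of the pathway covered isoforms of the same steps, fatty acid activation and lipid droplet formation. Of 22 with enough counts, 5 had a positive and 17 a negative log2 fold change, with a median of -0.12, and 0 passed edgeR's test, DESeq2 or limma voom. Unadjusted p was under 0.05 in 3 of the 22 (9.31% of all genes tested), 1 higher (5.05%) and 2 lower (4.26%). Groups without overlap and with Bmal1KO lower were seen in 2 of the 22, Bscl2 and Gpat4, beside 7.85% of all genes tested. With Bmal1KO higher they were seen in 0 of the 22 (7.83% of all). Bscl2, which encodes seipin, a lipid droplet protein whose loss also causes generalised lipodystrophy, had 544, 491 and 370.2 CPM in Bmal1KO and 697, 692 and 695 CPM in Bmal1WT. Its groups did not overlap and its log2 fold change was -0.57 (SE 0.18, adjusted p = 0.418).

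Mogat2, a relative of Mogat1 best known from the intestine, had 31.7, 13.02 and 18.4 CPM in Bmal1KO and 30.3, 46.8 and 34.0 CPM in Bmal1WT. The groups overlapped through Bmal1KO replicate 1, and the log2 fold change was -0.82 (SE 0.32, adjusted p = 0.477), or -1.24 without that library (adjusted p = 0.0575). Gpat4, a glycerol-3-phosphate acyltransferase of the endoplasmic reticulum, had 169, 132 and 105 CPM in Bmal1KO and 172, 175 and 173 CPM in Bmal1WT. The groups did not overlap, but Bmal1KO replicate 1 missed the lowest Bmal1WT library by little (log2 fold change -0.36, SE 0.18, adjusted p = 0.566).

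Lpin2, another lipin, prominent in liver, was 1 of the 5 with a positive log2 fold change, with 29.9, 31.9 and 20.7 CPM in Bmal1KO and 14.0, 21.1 and 16.9 CPM in Bmal1WT. Only Bmal1KO replicate 3 lay inside the Bmal1WT range, and the log2 fold change was 0.67 (SE 0.26, adjusted p = 0.477). The ratio of Lpin1 to Lpin2 per length was 6.99 ± 1.86 in Bmal1KO and 12.2 ± 3.50 in Bmal1WT (SD, n = 3 each; exact 2-sided permutation p = 0.2). The ratio of Gpam to Gpat4 was 0.363 ± 0.0359 in Bmal1KO and 0.421 ± 0.0615 in Bmal1WT (SD, n = 3 each; exact 2-sided permutation p = 0.3). Over the 5 ratios tested, the smallest Benjamini-Hochberg adjusted p was 0.375, where none could have gone under 0.1. Acsl1, the main acyl-CoA synthetase of fat cells, averaged 1161 ± 206 CPM in Bmal1KO and 1192 ± 235 CPM in Bmal1WT (SD, n = 3 each), and the other genes of the list had adjusted p-values above that of Bscl2.

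Markers of the cell types of the tissue differed alongside these genes. The 13 adipocyte markers, among them the adiponectin gene Adipoq, Pparg and the glycerol channel Aqp7, had negative log2 fold changes in 13 of 13, with a median of -0.37 and 0 past the test. Their mean log2 level lay 0.16, -0.82 and -1.15 from the Bmal1WT mean in Bmal1KO replicates 1 to 3, while that of the 10 triglyceride synthesis genes lay -0.11, -0.53 and -0.73 from it. Both means thus put the Bmal1KO libraries in the same order. Pck1, Gpam, Lpin1, Dgat1 and Pnpla3 each followed that order. Gpd1, Agpat2 and Agpat3 were instead highest in replicate 2, Mogat1 was highest in replicate 3, and Dgat2 was lowest in replicate 2. In the mean of the 10 genes, replicate 1 lay under every Bmal1WT library (-0.04, -0.05 and 0.09). In the adipocyte markers it lay above every Bmal1WT library (-0.20, 0.08 and 0.12). Of the other lists, 8 of 8 T cell markers, 4 of 4 B cell markers, 5 of 5 mesothelial markers, 7 of 8 macrophage markers and 4 of 5 stromal progenitor markers had positive log2 fold changes, and 7 of 7 endothelial markers negative ones. Of the genes of these lists 0 passed the test, and 48% of all genes tested had a log2 fold change below 0. Summed T cell markers ran from 85.1 to 202 CPM in Bmal1KO and from 18.7 to 67.3 CPM in Bmal1WT. Summed B cell markers were 35.9, 18.7 and 243 CPM in Bmal1KO replicates 1 to 3 and 27.1, 6.80 and 42.4 CPM in Bmal1WT. Only Bmal1KO replicate 3 thus lay above the Bmal1WT range in B cell markers. Macrophage markers ran from 3547 to 7468 CPM in Bmal1KO and from 4128 to 5959 CPM in Bmal1WT, mesothelial markers from 341 to 391.6 CPM in Bmal1KO and from 173 to 320 CPM in Bmal1WT, and stromal progenitor markers from 3229 to 3615 CPM in Bmal1KO and from 2396 to 3513 CPM in Bmal1WT. Endothelial markers ran from 211 to 361 CPM in Bmal1KO and from 318 to 673 CPM in Bmal1WT. The summed level of 6 liver markers, of a tissue that also expresses Pck1, Gpam and Pnpla3, was 2.60 to 9.17 CPM in Bmal1KO and 7.85 to 12.1 CPM in Bmal1WT. Of all markers, Tnp1 of the testis was the only gene at 0 in every library. The part of these markers in the differences was not tested, and in whole tissue fewer fat cells and less RNA per fat cell cannot be told apart.

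Set against the adipocyte markers of the same library, the 10 genes spread to both sides. Relative to the mean of Bmal1WT, Pck1 lay at 0.34, 0.27 and 0.33 log2 units in Bmal1KO replicates 1 to 3, and at 0.13, -0.39 and 0.26 in Bmal1WT replicates 1 to 3. The 3 Bmal1KO libraries, which differed most in Pck1 CPM, were thus nearly alike on this scale. Lpin1 lay at 0.28, 0.67 and 0.49 in Bmal1KO and at 0.23, -0.31 and 0.08 in Bmal1WT. Pck1 and Lpin1 were the 2 of the 10 whose groups did not overlap with Bmal1KO higher, as in 15.1% of all genes tested on this scale, and 0 of the 10 lay apart with Bmal1KO lower (0.303% of all). Pnpla3 lay at -0.29, -0.29 and -0.07 in Bmal1KO and at 0.24, -0.21 and -0.04 in Bmal1WT, and Dgat2 at -0.30, -0.20 and 0.21 in Bmal1KO and at -0.13, 0.03 and 0.10 in Bmal1WT. Both overlapped between groups. In edgeR with libraries scaled by these markers, 0 of the 10 passed, while 1.46% of all genes tested passed as higher and 0.0144% as lower. Of the 10, 6 had a positive log2 fold change on that scale. The other 4 were nearer to 0 than on the TMM scale, at -0.28 in Mogat1, -0.23 in Pnpla3, -0.081 in Dgat2 and -0.0066 in Gpam. Taken per library relative to the markers, Gpam differed by 0.013 log2 units between the group means, with the groups overlapping. That scale raised the median of all genes to 0.71, and the median of the 10 genes lay 0.49 log2 units under it, beside 0.47 units on the TMM scale. A change of scale shifts whole libraries, so a like gap between the 2 medians follows largely from the scaling itself. Single genes moved unequally. Against the median of all genes, Pck1 lay at -0.22 on the TMM scale and -0.43 on the adipocyte scale. Pnpla3 lay at -0.76 and -0.94 and Gpam at -0.57 and -0.72, while Agpat3 (-0.11 and -0.11) and Mogat1 (-1.01 and -0.99) hardly moved.

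**Figure D4:**
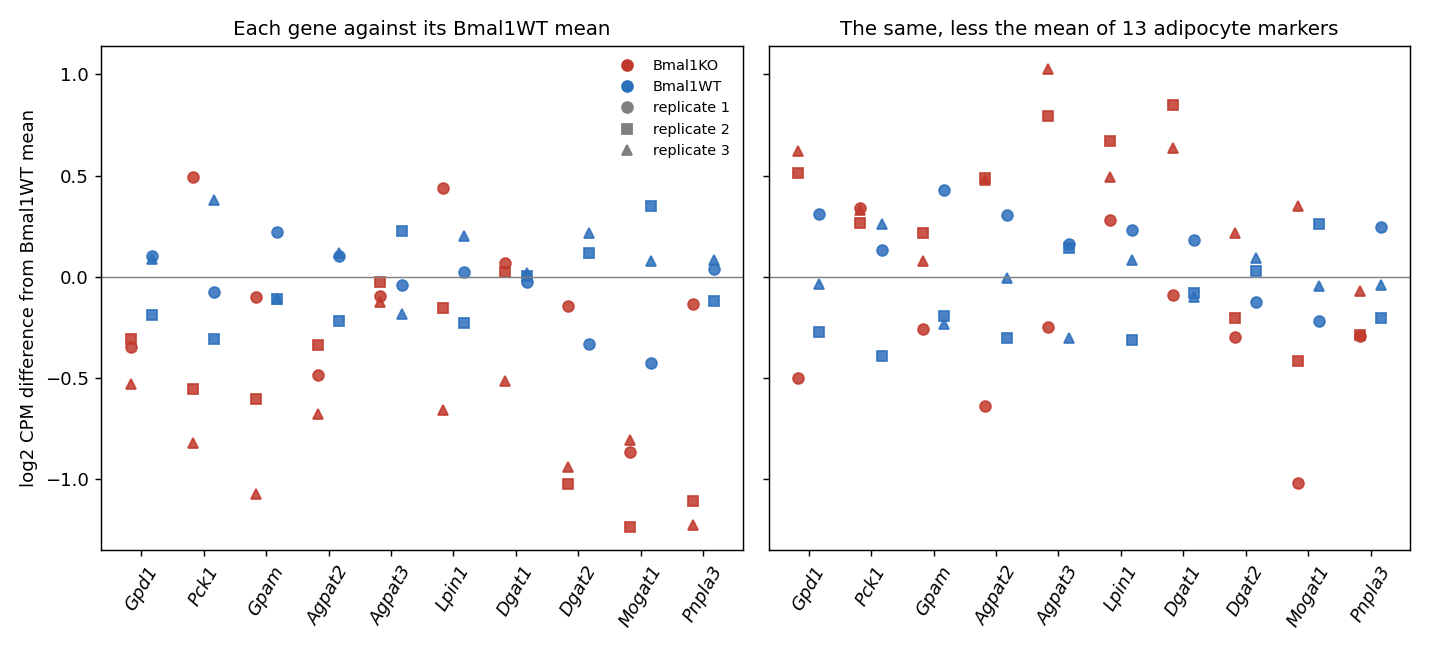
Log2 CPM of each gene less its Bmal1WT mean (left panel) and the same less the mean of 13 adipocyte markers of that library (right panel), with Bmal1KO points left of Bmal1WT points and the marker shape giving the replicate. In the right panel the 3 Bmal1KO points of Pck1 lie between 0.27 and 0.34, and those of Pnpla3 between -0.29 and -0.07.

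The genes nearest in pattern were found as the smallest root mean square distance between log2 CPM profiles over the 6 libraries, each centred on its own mean, for the 3 genes of largest fold change. Candidates were tested genes of mean at least 10 CPM whose SD of log2 CPM was at least 0.8 times that of the gene. The 10 triglyceride synthesis genes, predicted genes and pseudogenes were left out. There were 1315 candidates for Pnpla3, 1898 for Dgat2 and 1361 for Mogat1. For Pnpla3 they were Slc6a13, a transporter of GABA and taurine, at a distance of 0.0501 log2 units (174, 91.8 and 87.1 CPM in Bmal1KO, against 198, 190.1 and 223 CPM in Bmal1WT), Lbp, the lipopolysaccharide binding protein, at 0.0764, and Rgcc at 0.102. For Dgat2 they were Ivd, which encodes isovaleryl-CoA dehydrogenase of leucine breakdown, at 0.0954, the linker histone H1f0 at 0.113 and the actin-severing protein Gsn at 0.117. For Mogat1 they were Fam110c at 0.153 and the chemokines Ccl2 at 0.177 and Ccl7 at 0.186. The points share the libraries and their depth, and the distances describe these 6 libraries only.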

How the data were processed

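The authors deposited whole-number counts per gene symbol, from reads aligned with STAR 2.7.3a to mm10 and counted with featureCounts, per the submitters' processing notes. Per the labels' protocols, cDNA primed with oligo(dT) from 2 ng of RNA was amplified and tagmented, which marks neither strand nor molecule, so copies count as reads and the floor covers counting error only. Which annotation was counted, and how strand and multiple hits were set, is not given in the sources used here. All 6 columns were used, and totals are given above.

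Genes were kept by filterByExpr and scaled by TMM in edgeR 4.0.16 (R 4.3.3). Bmal1KO was set against Bmal1WT by the robust quasi-likelihood F-test with Benjamini-Hochberg adjustment over 13859 genes and a threshold of 0.05. SE is the absolute coefficient over the square root of F. CPM uses TMM-scaled sizes. Within-library ratios were tested by exact permutation of the 6 libraries. Positions and exon lengths come from GENCODE M21, of the same assembly. The test was tried on simulated counts with a common dispersion for all genes and no library set apart. That is simpler than these data, and no result here rests on it. The named genes are Arntl, Foxp3, the 10 genes, pathway genes (values for those with unadjusted p under 0.05 or groups without overlap), cell markers and the 3 nearest profiles of mean at least 10 CPM. Acsl1 was named after its values were seen. The genes, lists and marker sets were chosen with earlier results of these data known. Alternatives were other scalings, DESeq2 1.42.0, limma voom 3.58.1 with quality weights, other filters, the replicate number as a block, and libraries left out.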

Additional observations from a re-analysis of the deposited data

How the results depend on the processing

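Over all genes, 0 passed edgeR's test (1290 at an unadjusted p under 0.05), and 205 passed with scaling by adipocyte markers (203 higher, 2 lower), 60 with DESeq2, 186 with no filter and 61 without the first replicate of both groups. With 1 library left out the count ran from 0 to 156 (156 without Bmal1KO replicate 1, 6 without Bmal1KO replicate 2, 1 without Bmal1WT replicate 1). Of the triglyceride synthesis genes, 0 passed in the main fit, 2 with all libraries but no filter, 2 without the first replicate of both groups, and 0 to 2 with 1 library left out. No genes of the pathway list passed in any of the 15 alternatives run. The median of the 10 genes, -0.45, became 0.22 when scaled by adipocyte markers, a scale that shifts the median of all genes up by 0.69. With 1 library left out the median of the 10 genes ran from -0.61 to -0.34. On the adipocyte scale the direction turned in Agpat2 (0.17), Agpat3 (0.60), Bscl2 (0.057), Dgat1 (0.51), Gpat4 (0.24), Gpd1 (0.27), Lpin1 (0.47) and Pck1 (0.29). With total counts alone it turned in Agpat3 (0.0026) and Lpin1 (0.025). With 1 library, or both first replicates, left out, Agpat3 ran from -0.18 to 0.031, Dgat1 from -0.23 to 0.039, Lpin1 from -0.40 to 0.15 and Pck1 from -0.75 to 0.026. Testing without a filter raised the median of all genes by 0.44. Of 15 genes followed, 8 changed direction in at least 1 alternative. Of those that did not, the adipocyte scale left Gpam at -0.0066, Dgat2 at -0.081, Pnpla3 at -0.23, Mogat2 at -0.26 and Mogat1 at -0.28, and put Lpin2 at 1.32 and Arntl at 0.92. The cause was not tested. Same-numbered libraries did not deviate together (correlations of -0.07, 0.09 and -0.03 for replicates 1 to 3). Correlations of differently numbered libraries ran from -0.08 to 0.11. With 3 libraries per group these values cannot exclude a pairing, and the labels do not state one. With the replicate block 0 genes passed and the median of the 10 was -0.45. Of the 10 genes, Mogat1 had the fewest counts, at 38 to 113 per library.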

Other observations

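By the same restricted search, the profile nearest to that of Pck1, looked up after its values were seen, belonged to Clock, the partner of BMAL1 in the core clock. The root mean square distance was 0.0851 log2 units over the 6 libraries. Clock had 44.5, 23.0 and 18.1 CPM in Bmal1KO replicates 1 to 3 and 28.7, 26.0 and 36.6 CPM in Bmal1WT replicates 1 to 3. Both genes were thus highest in Bmal1KO replicate 1, the shallowest library, and lowest in Bmal1KO replicate 3. The profile nearest to that of Gpam belonged to the small heat shock protein gene Cryab, at 0.0681, with 288, 217 and 142 CPM in Bmal1KO and 386, 317 and 306 CPM in Bmal1WT.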
